A study of Mus musculus with 33 samples.

Results

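The vomeronasal receptor genes were examined in ChIP-seq lists from mouse embryonic stem cells (mESCs) and embryoid bodies (EBs) that carried or lacked Uhrf1. The loci were the protein-coding genes of chromosomes 1 to 19 in the mm9 GENCODE vM1 annotation whose names begin with Vmn1r or Vmn2r, each taken as the gene body with 5 kb on either side. They were 327 of 21418 such loci, 203 Vmn1r and 124 Vmn2r, and the other 21091 protein-coding loci served as the comparison. The 327 loci carried 326 names, because Vmn1r63 names 2 gene models, and 8 carried the pseudogene tag "-ps" in their names although the annotation types them as protein-coding.

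The series held 33 samples, of which 25 gave a list of regions and 8 were input libraries. Wild-type (WT) cells were the mouse ES line E14 and Uhrf1 knockout (KO) cells were labelled as E14 cells without Uhrf1, with 1 library for each target, stage and genotype, and both genotypes were studied as mESCs and as EBs, the aggregates in which mESCs differentiate, after 1, 2 and 3 weeks. H3K4me3, a mark of active and poised promoters, and H3K27me3, the mark laid by Polycomb complexes, were listed for all 8 combinations of genotype and stage. H3K9me3, the mark of constitutive heterochromatin, and the pluripotency factors Oct4, Sox2 and Nanog were listed in WT and KO mESCs, and Uhrf1 itself in WT mESCs alone. As a result no difference has a replicate check and no p-value is given. Intervals are 95% Wilson intervals for a share and 95% Newcombe intervals for a difference, and they cover counting error over loci only, although neighbouring loci often lay in the same domain and were not independent. The histone lists held between 722 domains (H3K27me3 in KO mESCs) and 39898 domains (H3K4me3 in WT EBs at week 2), and the read depth behind them was not analysed here. As a check of the labelled cells, 11 of 12 mESC marker genes (Pou5f1, Nanog, Sox2 and others) had H3K4me3 within 2 kb of the start in WT mESCs and 10 of 12 in KO mESCs. The same held for 11 of 12 in EBs of both genotypes at week 3, against 5 of 12 in WT and 2 of 12 in KO EBs at week 1. These markers therefore do not tell EBs at week 3 from mESCs. The Uhrf1 gene had H3K4me3 at its start in both genotypes of mESCs, which is no check of the knockout, since the lists hold no measure of Uhrf1 RNA or protein.

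Vomeronasal receptors are G protein-coupled receptors of the vomeronasal organ, the sensory organ in the nose with which mice detect pheromones and other social odours. Vmn1r receptors sit in neurons that carry the G protein Gnai2 and are known for small volatile and steroid ligands, while Vmn2r receptors have a long extracellular domain, sit in neurons that carry Gnao1 and are known for peptide and protein ligands. The genes lie in clusters that grew by repeated duplication, each neuron uses very few of them, and neither mESCs nor EBs are a tissue in which the receptors are known to act. Uhrf1 is a chromatin protein that binds hemimethylated DNA and H3K9me3 and helps to bring the DNA methyltransferase Dnmt1 to replicated DNA.

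The likeness of the copies bears on every value below, and the 250 bases upstream of a start show it. Of the 327 loci, 93 (28.4%) had another vomeronasal locus whose upstream bases differed at 25 positions or fewer, and 41 had an identical partner. Such a partner was found for 68 of the 142 loci with a Uhrf1 window (47.9%) and for 25 of the 185 without (13.5%). For each subfamily a closest pair that differed at all, with Uhrf1 windows at both genes and ties settled by position, is printed. The bases run 5′ to 3′ on the coding strand of the mm9 reference genome, with the base that differs in capitals. Vmn1r115 (chr7:21630005-21630254, minus strand) and Vmn1r127 (chr7:22104881-22105130, minus strand) differed at 1 of 250 bases, with starts 474876 bp apart. Vmn2r31 (chr7:7352339-7352588, minus strand) and Vmn2r44 (chr7:9743830-9744079, plus strand) also differed at 1 of 250 bases, with starts 2391742 bp apart.
Vmn1r115: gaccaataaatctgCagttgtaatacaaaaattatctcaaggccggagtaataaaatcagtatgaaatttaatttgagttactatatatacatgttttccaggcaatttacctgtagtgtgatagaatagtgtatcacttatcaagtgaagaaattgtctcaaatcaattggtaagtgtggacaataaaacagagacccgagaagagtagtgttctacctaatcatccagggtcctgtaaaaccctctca
Vmn1r127: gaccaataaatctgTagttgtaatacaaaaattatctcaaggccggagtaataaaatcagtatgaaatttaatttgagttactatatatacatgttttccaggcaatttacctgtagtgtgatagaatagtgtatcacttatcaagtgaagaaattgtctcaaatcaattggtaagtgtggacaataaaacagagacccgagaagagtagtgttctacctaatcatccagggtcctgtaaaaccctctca
Vmn2r31: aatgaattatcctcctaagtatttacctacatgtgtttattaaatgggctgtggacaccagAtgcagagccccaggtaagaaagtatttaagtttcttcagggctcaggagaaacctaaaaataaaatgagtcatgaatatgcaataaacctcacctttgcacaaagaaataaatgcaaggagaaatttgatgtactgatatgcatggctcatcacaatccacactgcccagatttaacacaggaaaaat
Vmn2r44: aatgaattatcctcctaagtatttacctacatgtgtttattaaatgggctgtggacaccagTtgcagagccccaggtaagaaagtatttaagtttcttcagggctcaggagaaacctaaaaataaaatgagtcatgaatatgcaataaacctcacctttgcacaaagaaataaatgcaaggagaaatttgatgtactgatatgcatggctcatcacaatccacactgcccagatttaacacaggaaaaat
A short sequencing read from most of these bases matches both copies equally well. The files were made with 1 alignment per read, so the copy to which such a read was assigned cannot be told.

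In WT mESCs, H3K9me3 lay over most vomeronasal loci, H3K27me3 and Uhrf1 windows over fewer of them, and H3K4me3 over few. An H3K9me3 domain touched 241 of the 327 loci (73.7%), against 40.5% of other protein-coding loci and 41.0% of all loci, a difference of 33.2 points (95% interval, lower bound 28.2). For 216 of these loci the domain covered the whole locus, and the domains at vomeronasal loci had a median length of 311.4 kb against 37.8 kb in the whole list. A Uhrf1 window touched 142 loci (43.4%), against 11.2% of other loci and 11.7% of all, a difference of 32.2 points (lower bound 27). The olfactory receptor loci (Olfr), another clustered receptor family, were close to other genes in the share with Uhrf1 windows. Within the vomeronasal loci the share was 55.6% for Vmn2r and 36.0% for Vmn1r. H3K27me3 touched 152 loci (46.5%), against 40.9% of other loci and 40.9% of all, so this difference was only 5.63 points (interval 0.252 to 11.1), and 15.0 points without the largest gene cluster, on chromosome 7. H3K4me3 touched 18 loci (5.50%), against 71.1% of other loci and 70.1% of all. Vomeronasal minus Olfr loci was -14.2 points for H3K9me3, -17.0 points for H3K27me3 and 0.713 points (-1.74 to 3.94) for H3K4me3. Frequent H3K9me3 and rare H3K4me3 were therefore not particular to vomeronasal loci.

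**Figure D1:**
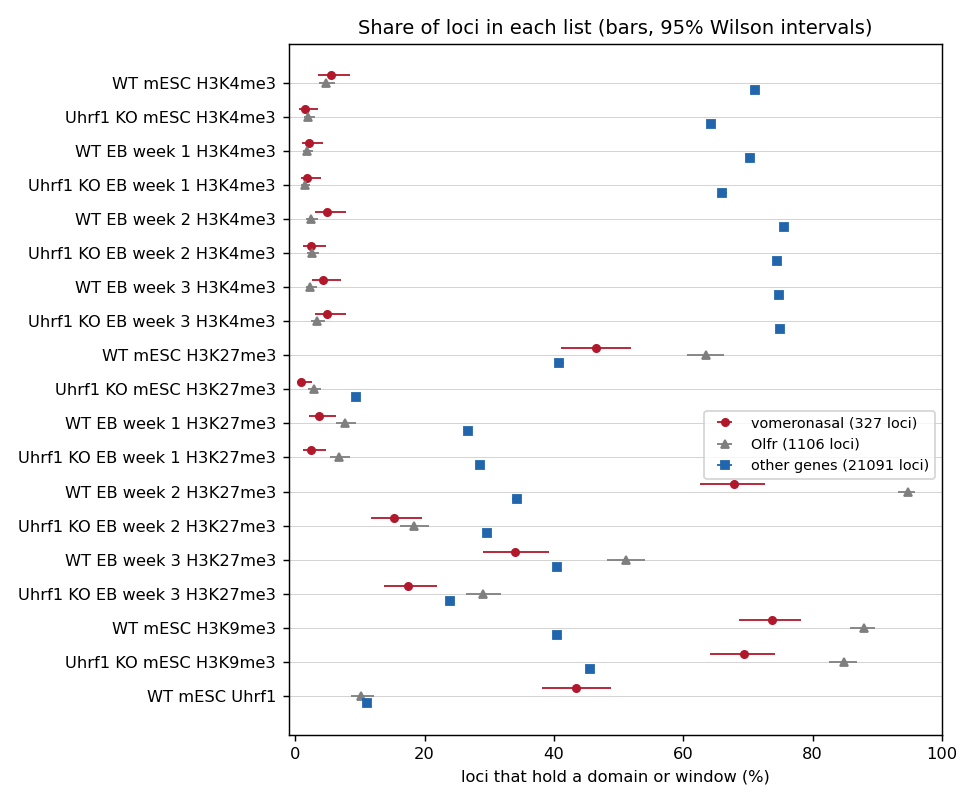
Percentage of loci that held at least 1 bp of a domain or window (x axis) in each histone and Uhrf1 list (y axis), for vomeronasal (red circles), Olfr (grey triangles) and other protein-coding loci (blue squares), with 95% Wilson intervals over loci. Vomeronasal loci sit far below other genes in every H3K4me3 list and above them for H3K9me3 and Uhrf1, and their H3K27me3 share falls from 67.9% in WT to 15.3% in KO EBs at week 2.

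The marks fell on overlapping loci, although lists of one genotype and stage may share an input library and are then not independent. Of the 152 loci with H3K27me3, 151 (99.3%) also had H3K9me3, which was 62.7% of the 241 loci with H3K9me3, whereas 61.5% of other genes with H3K27me3 and 93.4% of Olfr genes with it had H3K9me3. The loci therefore split into 151 with both marks, 90 with H3K9me3 alone, 1 with H3K27me3 alone and 85 with neither. Of those 85, 70 (82.4%) held a Uhrf1 window, against 7.47% of other genes with neither mark. Conversely, H3K9me3 was listed at 72 of the 142 loci with a Uhrf1 window (50.7%) and at 169 of the 185 without (91.4%). Other genes ran the opposite way, with H3K9me3 at 64.2% with a window and 37.5% without, as did Olfr loci with 93.8% and 87.2%. Across all 18 histone lists a vomeronasal locus was marked in a median of 4 lists and other genes in 9, and 72 vomeronasal loci were marked in none, against 683 of 21091 other loci and 6 of 1106 Olfr loci. Vmn2r111 and Vmn2r112, neighbours on chromosome 17, were marked in the most lists, 14 each, followed by Vmn2r57 with 13. Next were 4 loci with 11, of which Vmn2r9 and Vmn2r13 were the earliest by position. Among loci in none of the histone lists, the earliest by position were Vmn2r21, Vmn1r62, Vmn2r29, Vmn2r30 and Vmn2r32, of which Vmn2r21 and Vmn2r32 lay wholly in Uhrf1 windows and Vmn2r30 to 98.4% of its length. In all, 47 loci lay wholly in Uhrf1 windows, the longest of them being Vmn2r21, Vmn1r139, Vmn2r36, Vmn2r41 and Vmn2r5.

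The gene clusters differed widely from one another. Joining neighbours within 500 kb gave 29 clusters, of which 10 held 10 or more loci and 253 loci together, and 6 were single loci. The largest, 64 Vmn1r genes at chr7:20681507-24845710, had H3K9me3 at 17 loci (26.6%), H3K27me3 at 5 and Uhrf1 windows at 46 (71.9%), and the windows covered 74.4% of its span. A mixed cluster of 22 loci at chr7:8949257-11339887 was alike, with H3K9me3 at 5 loci and Uhrf1 windows at 14. Every locus was in an H3K9me3 domain, by contrast, in the 22-locus cluster at chr7:12249948-13810638, the 15 Vmn1r genes at chr6:89659197-90225047, the 12 Vmn2r genes at chr7:92083679-93399711 and the 10 Vmn2r genes at chr5:109221212-109887406. H3K9me3 also touched 29 of 32 Vmn1r loci at chr13:22174747-23347192, 33 of 35 loci of both subfamilies at chr17:17835905-21456873, 26 of 28 Vmn1r loci at chr6:56901460-58427872 and 12 of 13 loci at chr7:5092820-5967612. Uhrf1 windows in these last clusters touched 2, 10, 7 and 8 loci.

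**Figure D2:**
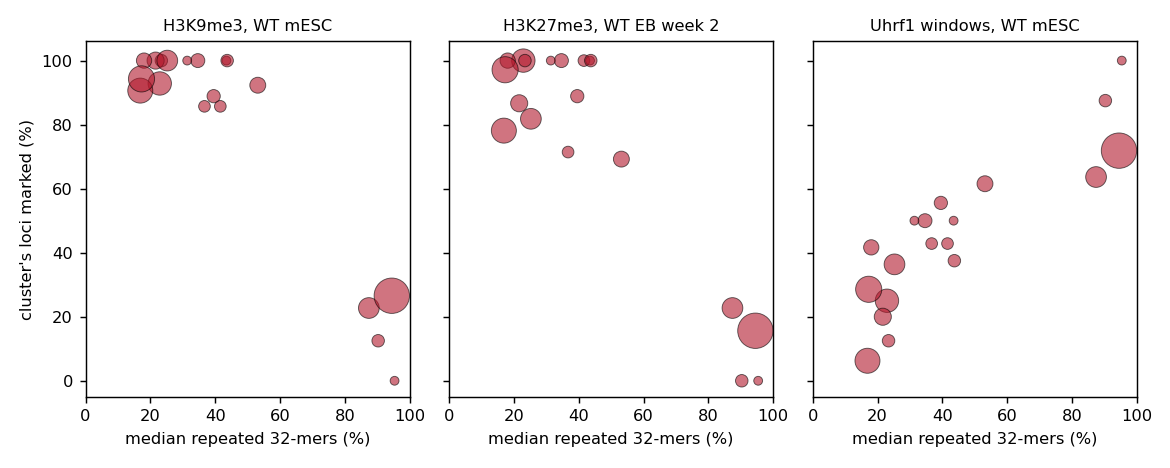
Percentage of a cluster's loci that were marked (y axis) against the median percentage of repeated 32-mers of its loci (x axis), for clusters of 4 or more loci, in panels for H3K9me3 and Uhrf1 in WT mESCs and H3K27me3 in WT EBs at week 2, with point area by the number of loci. The 64 Vmn1r genes on chromosome 7 (94.5% repeated) and the 3 others with medians from 87.4% to 95.3% have few loci with H3K9me3 and many with Uhrf1 windows, whereas the cluster with a median of 53.1% has H3K9me3 at 12 of 13 loci.

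The clusters also differed in the share of the locus that occurs elsewhere in the genome. Other features of sequence were not compared between clusters. This share was measured with 32-mers, runs of 32 bases sampled every 100 bp, and its median was 34.5% at vomeronasal loci against 7.08% at other genes, 12.7% at Olfr and 8.89% at zinc finger (Zfp) loci. Vomeronasal loci with a Uhrf1 window had a median of 82.8% and those without one 22.5%. Among the 208 loci with under 50% of repeated 32-mers, H3K9me3 was listed at 198 (95.2%) and Uhrf1 windows at 50 (24%). At the 119 loci with 50% or more, H3K9me3 was listed at 43 (36.1%) and Uhrf1 windows at 92 (77.3%). Other protein-coding genes moved alike for Uhrf1, from 8.15% to 68.1%, but their H3K9me3 share was 40.4% in the lower and 41.4% in the upper range, so it did not drop as at the vomeronasal loci. When the other genes were weighted to the same shares of repeated 32-mers, the vomeronasal excess was 6.05 points for Uhrf1 and 19.9 points for H3K9me3. The 120 other protein-coding genes that lay inside the vomeronasal clusters, 13 of them zinc finger genes, had Uhrf1 windows at 61 (50.8%) and H3K9me3 at 54 (45%). For Uhrf1, vomeronasal minus these neighbours was -7.41 points, with an interval (-17.6 to 2.95) that lies on both sides of no difference. The split at 50%, the weighting and the comparison with genes inside the clusters were chosen after seeing the data. The part of repeated sequence in these calls beyond those values was not tested.

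**Figure D3:**
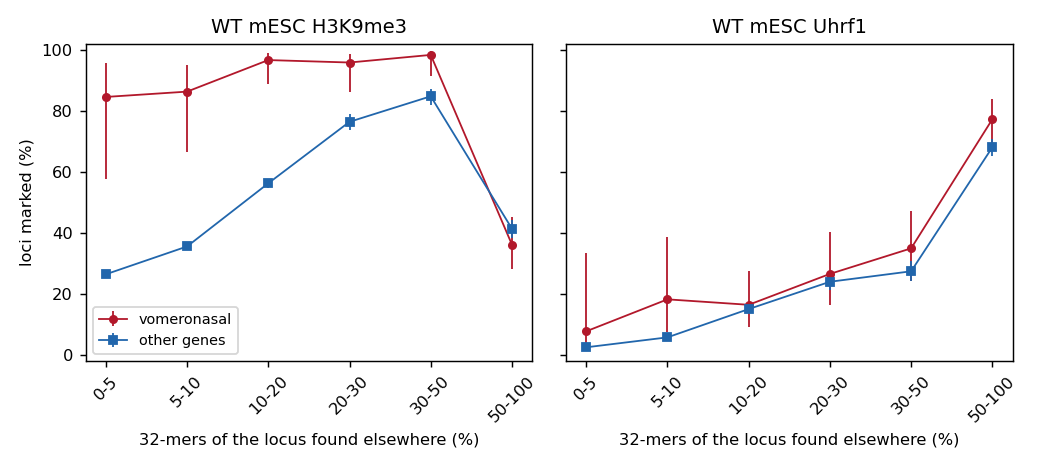
Percentage of loci marked (y axis) in bins of the percentage of a locus's 32-mers found elsewhere in the genome (x axis), for vomeronasal and other protein-coding loci, with 95% Wilson intervals over loci. In the uppermost bin Uhrf1 windows reach 77.3% of vomeronasal and 68.1% of other loci, while H3K9me3 at vomeronasal loci drops to 36.1% from 98.4% in the bin before.

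Most vomeronasal loci with H3K9me3 in WT mESCs also had it in KO mESCs. The KO list touched 227 loci (69.4%), against 45.6% of other genes and 45.9% of all loci, so KO minus WT was -4.28 points (95% interval -7.51 to -1.08). Other genes went the other way, by 5.12 points (4.43 to 5.80), and the contrast between vomeronasal and other genes was -9.40 points (-12.6 to -6.19). Of the 241 loci with H3K9me3 in WT, 220 (91.3%) had it in KO, against 74.3% of other genes, a difference of 17.0 points (12.7 to 20.1). Olfr loci were alike: they kept the mark at 91.6%, their KO minus WT was -3.07 points, and the contrast of vomeronasal with Olfr loci was -1.21 points (-4.93 to 2.52). The median length of the domains at vomeronasal loci was 365.4 kb in KO, against 140.4 kb in the whole KO list, and 206 loci were wholly covered.

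Of the 241 loci with H3K9me3 in WT, 21 lacked it in KO, against a background of 25.3% of all loci with the mark in WT, and 20 of them were Vmn1r genes. Vmn1r loci kept the mark at 127 of 147 (86.4%) and Vmn2r loci at 93 of 94 (98.9%), a difference of -12.5 points (-19.1 to -5.94). The loci without the mark in KO lay in runs: 7 were in the chromosome 13 cluster at 22.2 Mb (Vmn1r199 to Vmn1r203, Vmn1r216 and Vmn1r217), 6 in the largest chromosome 7 cluster (Vmn1r170, Vmn1r178 to Vmn1r181 and Vmn1r183), and 4 were Vmn1r68 to Vmn1r71. Both gene models of Vmn1r63, together with Vmn1r90 and Vmn2r2, completed the set, and Vmn1r63, Vmn1r69, Vmn1r71, Vmn1r90 and Vmn1r199 were wholly covered in WT and uncovered in KO. The reverse, H3K9me3 in KO alone, was seen at 7 of the 86 loci without the mark in WT, against 26.0% of all such loci, and these were Vmn2r1, Vmn1r15, Vmn1r18, Vmn2r52, Vmn1r211, Vmn2r105 and Vmn1r233. Of these, Vmn1r18, Vmn1r211, Vmn1r233, Vmn2r52 and Vmn2r105 were wholly covered in KO. Loci with a Uhrf1 window in WT kept H3K9me3 at 97.2% and those without at 88.8%, a difference of 8.46 points (0.616 to 14.5). This value pools the subfamilies, and Vmn2r loci both had windows more often and kept the mark more often. Taken apart, the difference was 8.72 points within Vmn1r and 1.92 points within Vmn2r. Each of these 2 intervals lies on both sides of no difference.

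H3K27me3 at vomeronasal loci differed between stages and, except at week 1, between genotypes. In mESCs it touched 152 loci in WT and 3 in KO (0.917%), where the background over all loci was 9.30%. At week 1 it touched 12 loci in WT EBs (3.67%, background 26.4%) and 8 in KO EBs (2.45%, background 28.2%). At week 2 it reached 222 loci in WT (67.9%, background 34.7%) and 50 in KO (15.3%, background 29.4%). At week 3 it touched 111 loci in WT (33.9%, background 40.4%) and 57 in KO (17.4%, background 23.8%). The WT series thus dipped at week 1 and peaked at week 2, where vomeronasal loci exceeded other genes (34.2%), whereas in KO the share touched was below that of other genes at every stage. Counted in base pairs, KO at week 3 was the exception, with 17.2% of vomeronasal and 14% of other sequence covered. The course in WT was not particular to vomeronasal loci. Olfr loci had the mark at 702 of 1106 in WT mESCs and at 85, 1048 and 566 at weeks 1, 2 and 3. Domains of the whole WT list were also short at week 1, with a median of 8.75 kb. The medians were 61.2 kb in WT mESCs, 64.8 kb at week 2 and 46.8 kb at week 3. The part of domain length in the dip was not tested.

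**Figure D4:**
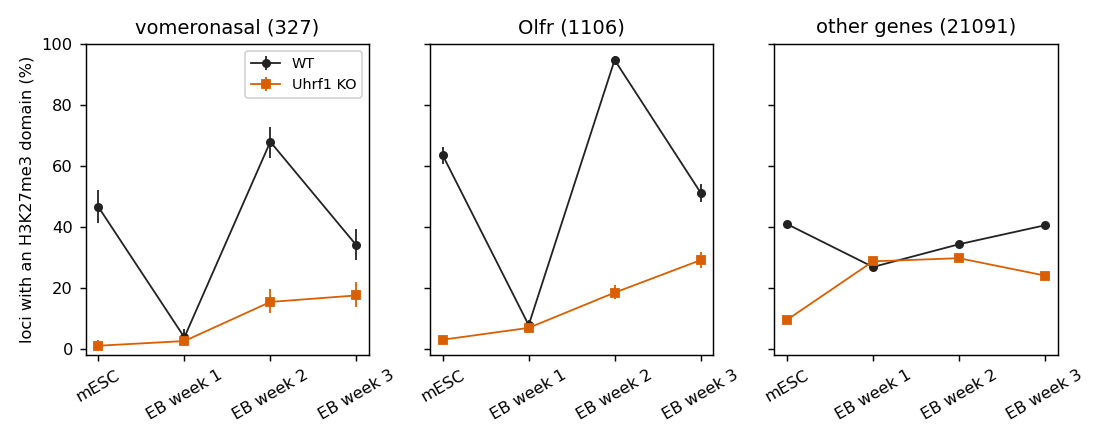
Percentage of loci with an H3K27me3 domain (y axis) in mESCs and in EBs at weeks 1, 2 and 3 (x axis) for WT and Uhrf1 KO, drawn apart for vomeronasal, Olfr and other protein-coding loci, with 95% Wilson intervals over loci. At vomeronasal loci WT and KO are 46.5% and 0.917% in mESCs and 67.9% and 15.3% at week 2, and 3.67% and 2.45% at week 1.

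KO minus WT was -45.6 points in mESCs (-51.0 to -39.9), against -31.4 points at other genes and -60.6 at Olfr loci. The KO list of mESCs was by far the shortest histone list, with 722 domains against 8161 in WT, and the part of that gap in the difference was not tested. At week 1 KO minus WT was -1.22 points (-3.85 to 1.24), an interval that includes 0. At week 2 it was -52.6 points (-57.9 to -46.6), against -4.57 points at other genes, and the contrast was -48.0 points (-53.7 to -42.4). The Olfr loci showed a difference of -76.4 points at this stage, so the week 2 difference was not particular to vomeronasal genes. At week 3 KO minus WT was -16.5 points (-21.8 to -11.1) and also -16.5 at other genes. It was -28.5 points with equal weight for each cluster. Without KO domains whose mean count was below the minimum of the WT list it was -33.6 points. That cut compares counts between libraries, and whether they were scaled for depth is not stated. The median count at week 3 was 8.59 in the WT list and 5.14 in the KO list. The part of depth in the value of -33.6 points was not tested. Of the loci marked in WT, KO kept 0.658% in mESCs, 25% at week 1, 21.2% at week 2 and 36.0% at week 3, against 16.8%, 74.6%, 53.2% and 51.6% of other genes. Loci marked in WT and not in KO made up 34.2%, 6.73%, 16.6% and 19.6% of all protein-coding loci at the 4 stages, and those marked in KO alone 2.55%, 8.53%, 11.3% and 3.10%.

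How far the loci with H3K27me3 in WT were shared between stages depended on the stage. Of the 152 marked in mESCs, 10 (6.58%) were marked at week 1 and 142 (93.4%) at week 2, which is 64.0% of the 222 at week 2. The loci marked at both week 2 and week 3 were 108, which is 48.6% of the 222 and 97.3% of the 111. In KO EBs, 30 loci were marked at both week 2 and week 3, 60% of the 50 and 52.6% of the 57. No H3K27me3 was listed at any stage for 94 loci in WT (28.7%) and for 246 in KO (75.2%), against 41.3% and 56.0% of other genes. At all 4 stages it was listed at 10 loci in WT (3.06%) and 0 in KO, against 13.4% and 4.36% of other genes. The mark again lay where H3K9me3 was listed in mESCs: this held for 212 of the 222 WT loci at week 2, 110 of the 111 at week 3, and all 50 and all 57 of the KO loci. At WT week 2 the same held for 70.5% of other genes and 89.9% of Olfr loci with H3K27me3, and for KO Olfr loci it held for 78.8% at week 2 and 90.7% at week 3. At loci with under 50% of repeated 32-mers, WT EBs at week 2 had H3K27me3 at 183 of 208 (88.0%) and KO EBs at 39. The 34 of 35 loci marked in WT at week 2 in the chromosome 17 cluster at 17.8 Mb became 4 in KO, and the 25 of 32 in the chromosome 13 cluster became 1. Other clusters held the mark: all 4 loci at chr10:78606542-78959899 had it in both genotypes, and at chr17:22679908-23621564 it was listed at 8 of 8 loci in WT and 6 in KO.

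Receptors with a known ligand or place in the family, taken whatever their values, followed these patterns with a few exceptions. H3K27me3 covered 0% of all 12 of them in KO mESCs. Vmn2r116, the receptor for a male tear-fluid peptide, lay wholly in H3K9me3 domains in both genotypes and had H3K27me3 over 47.4% of its locus in WT mESCs. It was wholly covered by H3K27me3 at weeks 2 and 3 in both genotypes. Vmn2r26, known for responses to peptides that bind histocompatibility molecules, was also wholly in H3K9me3, but its H3K27me3 cover went from 100% in WT to 0% in KO in mESCs and at week 2, and from 100% to 66.1% at week 3. Vmn1r49, a receptor for a urinary ketone, had H3K9me3 over 8.42% of its locus in WT and 100% in KO, and H3K27me3 over 100% in WT mESCs and at weeks 2 and 3 but 0% in KO. Vmn1r85 and Vmn1r89, receptors for sulfated steroids, ran against the family at week 2: H3K27me3 covered 91.2% and 0% of their loci in WT and 100% of both in KO.

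The family C receptors Vmn2r1 to Vmn2r7, which are co-expressed with other Vmn2r receptors, lie together on chromosome 3 but differed from gene to gene. H3K9me3 covered 85.7% of Vmn2r2 in WT and 0% in KO, while its neighbour Vmn2r1 went from 0% to 36.2%. Vmn2r3, Vmn2r4 and Vmn2r6 were wholly covered in both genotypes, and Vmn2r7 went from 93.7% to 100%. Vmn2r5 was wholly in Uhrf1 windows, with H3K9me3 over 15.5% of its locus in both genotypes and 77.0% of repeated 32-mers, the highest of these genes. In KO EBs at week 2, H3K27me3 covered 98.5% of Vmn2r4 and 24.6% of Vmn2r7 and 0% of the other 5, whereas in WT it covered at least 15.5% of each.

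H3K4me3 was rare at the receptors and, where present, seldom at a receptor's own start. KO mESCs had it at 5 loci (background 63.3%), and KO minus WT was -3.98 points (-6.71 to -1.90), against -6.82 at other genes. The sign turned to 0.306 points when 50% of the locus had to be covered, and the difference in base pairs was -0.449 points. WT and KO EBs had it at 7 and 6 loci at week 1 (background 69.2% and 65.1%), at 16 and 8 at week 2 (74.5% and 73.4%) and at 14 and 16 at week 3 (73.8% and 74.0%). The EB differences were -0.306, -2.45 and 0.612 points, each with an interval that includes 0. The mark was in WT alone and in KO alone at 5 and 4 loci at week 1 (background 5.82% and 1.68%), 12 and 4 at week 2 (3.53% and 2.34%) and 7 and 9 at week 3 (2.19% and 2.37%). In mESCs, 13 loci had the mark in WT alone, against 7.80% of all loci, and 0 in KO alone, against 1.03%. In all, 41 loci had H3K4me3 in at least 1 of the 8 lists, 20 of them in 1 list and 0 in all 8. A domain within 2 kb of the receptor's own start was found at 14 loci. Per list this was 6 loci in WT and 3 in KO mESCs, 2 and 3 at week 1, 3 and 2 at week 2, and 3 and 6 at week 3. The backgrounds over all genes for a domain at the start were 64.1% and 57.8% in WT and KO mESCs, 62.8% and 57.7% at week 1, 66.4% and 65.3% at week 2, and 67.0% and 66.6% at week 3.

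The receptor with the mark at its start in the most lists was Vmn2r112 (ENSMUSG00000073444.3, chr17:22738115-22756100, plus strand), in WT mESCs, EBs of both genotypes at week 1, WT EBs at week 2 and KO EBs at week 3. Its neighbour Vmn2r111 (ENSMUSG00000073445.3, chr17:22684908-22710240, minus strand) had it at the start in 4 lists, and Vmn1r1, Vmn2r9 and Vmn1r90 in 3 each, followed by Vmn1r174 in 2 and Vmn1r87, Vmn1r235, Vmn2r117 and Vmn2r74 in 1. Vmn2r57 had H3K4me3 in 7 lists near the start of another gene. The 250 bases upstream of Vmn2r112 (chr17:22737865-22738114, plus strand) and Vmn2r111 (chr17:22710241-22710490, minus strand) are printed because these loci were marked most often, 5′ to 3′ on the coding strand from mm9, with the dinucleotide CpG in capitals.
Vmn2r112: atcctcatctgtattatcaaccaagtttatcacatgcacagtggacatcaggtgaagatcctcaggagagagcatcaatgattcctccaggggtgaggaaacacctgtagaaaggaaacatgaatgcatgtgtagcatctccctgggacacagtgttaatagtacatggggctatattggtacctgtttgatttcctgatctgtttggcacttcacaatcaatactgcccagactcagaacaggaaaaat
Vmn2r111: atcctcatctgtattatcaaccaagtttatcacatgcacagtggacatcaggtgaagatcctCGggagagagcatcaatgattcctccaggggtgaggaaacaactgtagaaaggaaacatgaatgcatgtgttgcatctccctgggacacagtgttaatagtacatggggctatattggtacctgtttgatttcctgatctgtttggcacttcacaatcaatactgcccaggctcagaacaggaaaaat
They differ at 4 of 250 bases and their starts lie 27875 bp apart, so reads from much of this stretch fit either gene. Vmn2r112 holds 0 CpG and Vmn2r111 holds 1 in these bases. Vomeronasal starts held a median of 1 CpG in the 250 upstream bases, with none at 114 of 327 (34.9%), while other genes held a median of 9, with none at 7.01%.

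Oct4, Sox2 and Nanog summits were sparse at vomeronasal loci and lay away from the starts. WT mESCs had an Oct4 summit at 14 loci (4.28%, background 18.8%) and KO mESCs at 0 (background 0.700%), where the whole KO list held 576 summits against 12898 in WT. Sox2 summits lay at 10 loci in WT (background 12.5%) and 15 in KO (background 44.2%), a difference of 1.53 points (-0.661 to 3.97) against 32.2 points at other genes. Nanog summits lay at 3 loci in WT (background 4.61%) and 10 in KO (background 17.4%), a difference of 2.14 points (0.468 to 4.41) against 12.9 points at other genes. The Sox2 and Nanog lists were longer in KO, with 20755 against 5190 and 10632 against 2390 summits. Against Olfr loci the contrast of KO minus WT was -0.641 points for Sox2 (-2.83 to 1.55) and 0.784 points for Nanog (-0.926 to 2.49), and both intervals include 0. Loci with a summit in WT alone made up 18.1% (Oct4), 0.831% (Sox2) and 0.177% (Nanog) of all protein-coding loci, and those with one in KO alone 0.0467%, 32.6% and 12.9%. Of the 15 WT Oct4 summits, 10 lay in introns, 3 upstream and 2 downstream, their median height of 36 reads was close to the 37 of the whole list, and 14 lay inside WT H3K9me3 domains. None of the summits of any factor lay in an exon or within 1 kb of a start.

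Joining summits within 200 bp gave 31 sites at 26 loci, and 9 sites had summits of more than 1 factor. All 3 factors met at 6 sites, in or beside Vmn1r1, Vmn2r85, Vmn2r3, Vmn1r192, Vmn2r-ps106 and Vmn2r12, and 2 factors at Vmn2r77, Vmn2r83 and Vmn2r82. The tallest Oct4 summit, 94 reads in WT, lay upstream of Vmn1r1, at -4876 bp from its start, where Sox2 reached 33 reads in WT and 62 in KO and Nanog 21 and 32. At the intronic site of Vmn2r85 Oct4 reached 57 reads, Sox2 30 in WT and 49 in KO, and Nanog 11 and 16. The intron of Vmn2r3 had 86 reads of Oct4, 27 and 54 of Sox2, and Nanog in KO alone with 16. At Vmn1r192, Vmn2r-ps106 and Vmn2r12 Oct4 was listed in WT (46, 40 and 36 reads), and Sox2 (31, 27 and 30) and Nanog (14, 7 and 11) in KO alone. Heights in WT and KO are given as deposited, and whether they were scaled for depth is not stated, so no ratio is drawn. Uhrf1 windows held 3 of the 31 sites, those at Vmn1r192, Vmn2r-ps106 and Vmn2r87.

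**Figure D5:**
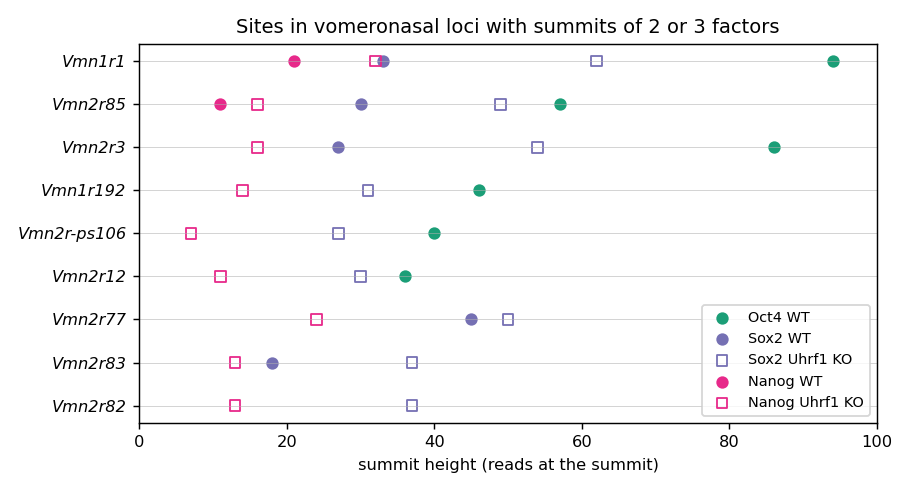
Height in reads at the summit (x axis) of Oct4, Sox2 and Nanog at the 9 sites with summits of 2 or 3 factors (y axis, named by the vomeronasal locus), with filled and open symbols for WT and Uhrf1 KO. Oct4 appears in WT alone, with up to 94 reads at Vmn1r1, and Sox2 in KO is between 27 and 62 reads at all 9 sites.

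Several of these sites were copies of one another although they lay on different chromosomes. The 101 bases around the tallest summit are printed for the sites that matched, 5′ to 3′ in mm9 and on the strand that aligns, with runs of 8 or more bases shared with 1 partner site in capitals. The capitals of Vmn2r82 and Vmn2r12 mark the runs these sites share with each other, as do those of Vmn2r3 and Vmn1r192. Vmn2r82 (chr10:78862833-78862933, plus strand) and Vmn2r12 (chr5:109525684-109525784, plus strand) were identical at 81 of 88 aligned bases (92.0%). Vmn2r85 (chr10:129857222-129857322, plus strand) was identical to Vmn2r82 at 58 of 68 aligned bases (85.3%) and its capitals mark the runs shared with that site. Vmn2r3 (chr3:64069778-64069878, plus strand) and Vmn1r192 (chr13:22284759-22284859, minus strand) were identical at 72 of 90 aligned bases (80%).
Vmn2r82: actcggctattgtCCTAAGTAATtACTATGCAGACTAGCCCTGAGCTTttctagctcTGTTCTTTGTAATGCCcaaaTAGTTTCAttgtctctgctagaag
Vmn2r12: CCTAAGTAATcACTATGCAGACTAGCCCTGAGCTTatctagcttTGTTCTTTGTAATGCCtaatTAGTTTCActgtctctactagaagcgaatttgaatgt
Vmn2r85: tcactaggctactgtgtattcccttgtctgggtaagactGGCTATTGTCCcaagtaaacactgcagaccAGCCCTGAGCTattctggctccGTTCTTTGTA
Vmn2r3: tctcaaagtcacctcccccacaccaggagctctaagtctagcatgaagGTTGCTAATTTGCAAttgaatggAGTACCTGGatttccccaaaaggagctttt
Vmn1r192: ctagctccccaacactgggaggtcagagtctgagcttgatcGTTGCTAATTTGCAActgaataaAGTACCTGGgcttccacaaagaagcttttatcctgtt
Among the 36 pairs of the 9 sites, these had alignment scores of 74, 45 and 52 and Vmn2r85 with Vmn2r12 scored 33, while the next pair scored 14 and the median was 9. The longest run shared by Vmn2r82 and Vmn2r12, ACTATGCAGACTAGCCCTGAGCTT, occurred 66 times on chromosomes 1 to 19. Of these 66 copies, 17 in WT and 0 in KO had an Oct4 summit within 100 bp. A Sox2 summit lay as near to 8 copies in WT and 27 in KO, and a Nanog summit to 5 in WT and 29 in KO. The run shared by Vmn2r3 and Vmn1r192, GTTGCTAATTTGCAA, occurred 184 times. In WT and KO, 67 and 2 of these copies had an Oct4 summit as near, 23 and 73 a Sox2 summit, and 11 and 62 a Nanog summit. No repeat annotation was used here.
The letters of the octamer ATGCAAAT, which Oct4 is known to bind, were searched on both strands of the 101 bases around every summit and were found at 8.81% of all WT Oct4 summits and at 1 of 15 in vomeronasal loci (6.67%). The letters CATTGT of a Sox site were found at 12.9% of all KO Sox2 summits and at 2 of 16 in vomeronasal loci (12.5%). Neither run of letters contains the other, and none of the 6 sites with all 3 factors held either of them in the 101 bases. Only these exact letters were searched, so variant forms of either motif would be missed. Most summits of the whole lists lacked them too, so their absence at 6 sites says little.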

How the data were processed

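Per the study's methods, the authors aligned ChIP-seq reads to mm9 with Bowtie2 2.1.0 in local mode and reported 1 alignment for each read. A read from repeated sequence was thereby placed at 1 of several equal copies, which can move signal between near-identical receptor genes. RSEG compared each histone library with an input library to find domains, with a correction for bases at which short reads are not unique, so such stretches can lack a domain for want of usable bases. Uhrf1 enrichment was called in 10 kb windows by a fold and a Poisson test over input, and factor summits with MACS. The deposited domain lists give a score and a signal per domain, the mean number of reads in its bins, the deposited summit lists give a signal (reads at the summit), and the other columns the authors deposited are coordinates, the only content of the Uhrf1 list. Whether the signal columns were scaled for depth is not stated, so lists were compared by presence alone. The exception was the alternative that dropped KO H3K27me3 domains by their mean count. Columns not mapped to a sample numbered 0.

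A locus was counted as marked when it shared at least 1 bp with a region or held a summit. Shares were given with 95% Wilson intervals, differences with Newcombe intervals, and KO minus WT with an interval for paired loci, without a test because each group had 1 library. Repeated sequence was the percentage of 32-mers, sampled every 100 bp, found elsewhere in mm9. Upstream bases and summit windows were read from the mm9 (NCBIM37) reference genome. Computation used Python 3.11.15 with numpy 2.4.6, scipy 1.17.1, pandas 2.3.3, numba 0.67.0 and matplotlib 3.10.9. On simulated data 0 of 3000 overlaps were wrong.

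The loci and gene lists were chosen with earlier results of these data known. Loci were named by rule: up to 10 with H3K4me3 at the start in the most lists, the 5 marked in the most and the fewest histone lists, those with the tallest summits, the 5 with most of their length in Uhrf1 windows, clusters of 10 or more, up to 5 that changed H3K9me3 in each direction by the share covered, and 12 receptors with a known ligand or place in the family. Sites with 2 or 3 factors, the full sets of loci that changed H3K9me3, and loci with near-identical sequence were named after their values were seen. Alternatives changed the overlap required, the locus, the score or height required, the weighting of clusters, the largest cluster and the genes compared.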

Additional observations from a re-analysis of the deposited data

Results flagged for a closer look

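The difference between KO and WT in the share of vomeronasal loci with H3K4me3 changed sign between stages. It was -3.98 points in mESCs, -0.306 points in EBs at week 1 and -2.45 points at week 2, but 0.612 points at week 3. Each stage and genotype had 1 library, so the difference between stages was not tested, and in EBs at most 16 of 327 loci carried the mark in any list. At week 3 the mark lay at 7 loci in both genotypes, at 7 in WT alone and at 9 in KO alone.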

How the results depend on the processing

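Of 121 alternatives, 75 left the value within its interval, 44 moved it out and 2 reversed a sign whose interval excluded 0. Differences at week 1 whose interval includes 0 also changed sign, H3K27me3 from -1.22 to 0.306 with 50% cover and 0.253 in base pairs, and H3K4me3 from -0.306 to 0.612 over the gene body alone. All differences are in points. For vomeronasal minus other genes in WT mESCs, requiring 50% of the locus to be covered gave -27.0 for H3K4me3, 16.7 for H3K27me3, 46.2 for H3K9me3 and 19.5 for Uhrf1. Domains above the median score gave -52.6, 12.6 and 41.5 for the histone marks in that order. Counting base pairs gave -16.7, 16.7, 44.7 and 22.0, with Uhrf1 last. Equal weight for each cluster gave -59.6, 17.3 and 45.5 for the histone marks. Without the largest cluster the values were 15.0 for H3K27me3, 44.7 for H3K9me3 and 25.3 for Uhrf1. Other genes of the same lengths gave -42.8 for H3K4me3 and 23.0 for H3K9me3, and the gene body alone gave 22.9 for Uhrf1. Alternatives chosen after seeing the data were other genes at the same shares of repeated 32-mers (-32.0 for H3K4me3, 19.9 for H3K9me3, 6.05 for Uhrf1), vomeronasal loci with fewer repeats (13.4 for H3K27me3, 54.0 for H3K9me3, 8.33 for Uhrf1) and other genes inside the clusters (-29.5 for H3K4me3, 17.3 for H3K27me3 and, reversed, -7.41 for Uhrf1). The interval of that reversed value includes 0. For KO minus WT, equal weight for clusters gave -57.1, -7.73, -63.0 and -28.5 for H3K27me3 in mESCs and at weeks 1, 2 and 3, -9.50 and 3.49 for H3K4me3 in mESCs and at week 3, -8.34 for Oct4 and 4.68 for Nanog. Without the largest cluster H3K27me3 was -54.8 in mESCs and -62.4 at week 2, and at loci with fewer repeats it was -54.3 and -72.0. Dropping KO domains with a mean count below the minimum of the WT list, also chosen after seeing the data, gave -33.6 for H3K27me3 at week 3. That cut compares counts of libraries whose scaling for depth is not stated. For H3K4me3 in mESCs, 50% cover reversed the sign to 0.306, domains above the median score gave -0.917 and base pairs -0.449. Oct4 summits above the median height gave -1.83. The cause of these moves was not tested. No paired analysis was possible because each group had 1 sample, and no replicate could be left out. Presence in a list says nothing of the amount of a mark, and a locus without a domain may lack usable reads.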

Other observations

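Gene families known to act with the receptors differed in the marks they carried. The 9 H2-M genes of the list, nonclassical histocompatibility genes expressed with Vmn2r receptors, had H3K27me3 in WT mESCs at 9 of 9 and, unlike the receptors, also in KO mESCs at 9 of 9. The background over all loci was 40.9% in WT and 9.30% in KO mESCs. These 9 genes lie together at chr17:36421172-36952509, so 1 domain can mark several of them and they are not independent. They had H3K9me3 at 8 in WT and 7 in KO, H3K27me3 at 8 in WT and 6 in KO EBs at week 2, at 8 and 2 at week 3, and a Uhrf1 window at 1. The 7 formyl peptide receptor genes, several of which serve as receptors in vomeronasal neurons, had H3K27me3 at 4 in WT and 0 in KO mESCs, at 7 and 3 at week 2 and at 3 and 0 at week 3, with H3K9me3 at 6 and 4 and Uhrf1 windows at 2. These 7 genes lie inside the vomeronasal cluster at chr17:17835905-21456873, and the models of Fpr2 and Fpr3 overlap. They can share domains with each other and with the receptors, so they are not independent of either. Over all loci, H3K27me3 in WT and KO EBs was at 34.7% and 29.4% at week 2 and 40.4% and 23.8% at week 3. For H3K9me3 the shares over all loci were 41.0% and 45.9%, and for Uhrf1 windows 11.7%.

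The 8 genes of signal transduction (the channel gene Trpc2, the G protein genes Gnai2, Gnao1, Gng8 and Gng2, Omp, Ano1 and Ano2) had H3K4me3 at the start of 5 in WT and 4 in KO mESCs, H3K27me3 at 3 and 1 and H3K9me3 at 1 and 1. Over all loci the shares in WT and KO mESCs were 64.1% and 57.8% for H3K4me3 at the start. They were 40.9% and 9.30% for H3K27me3 and 41.0% and 45.9% for H3K9me3. At a list size of 7 to 9 genes a difference of 1 or 2 genes is not informative.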
